A study of Homo sapiens with 6 samples.

Results

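UTRN, TNFAIP8L3, MYOM1, PTGS1, SHISA2 and FAM19A4 are 6 protein-coding genes of the 4101 genes in the deposited table that were near or below 1 CPM (a read count per 1 M reads of the library) in SH-SY5Y cells given PBS and strongly higher in cells given METH. They were chosen by their CPM values in the PBS and METH columns, leaving out the stimulus-response transcription factors, channels and adhesion families with a like pattern. The difference between the groups is therefore given for them as a description, without a test. SH-SY5Y, a line derived from a human neuroblastoma (genotype WT in the labels), serves as a model of dopaminergic cells. RNA was sequenced from 3 samples of the METH-treatment group, exposed to 2 mM methamphetamine (METH), a psychostimulant, for 24 h, and from 3 samples of the PBS-treatment group, given the same volume of phosphate-buffered saline. The labels give the time of all 6 samples as day 0. The PBS columns of the table are numbered 10, 11 and 12, which is why the names PBS 10, PBS 11 and PBS 12 are used below.

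The 6 genes do not belong to 1 pathway. UTRN encodes utrophin, the widely expressed relative of dystrophin that ties the actin skeleton to the dystroglycan complex of the cell membrane. MYOM1 encodes myomesin, which cross-links myosin filaments at the M band of the muscle sarcomere. PTGS1 encodes the cyclooxygenase that is usually described as constitutive and that turns arachidonate into the precursor of prostaglandins and thromboxane. TNFAIP8L3 encodes a carrier of phosphoinositide lipids, SHISA2 a protein of the endoplasmic reticulum that holds back frizzled and FGF receptors, and FAM19A4 (now named TAFA4) a small secreted protein known from sensory neurons.

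The promoters of the genes did not look alike. RefSeq (GRCh38.p14) gives 9 promoter windows for the 6 genes, each from 250 bases before to 50 bases after a transcript start, and 35116 such windows for 27305 genes in all. The 4 windows printed here, the first listed of each gene, show how far they differ in G and C, from high in UTRN and SHISA2 to lower in MYOM1 and PTGS1. Capitals mark the searched letters found on either strand. Each is written 5′ to 3′ on the strand of its gene.
UTRN, chr6:144285085-144285384, plus strand: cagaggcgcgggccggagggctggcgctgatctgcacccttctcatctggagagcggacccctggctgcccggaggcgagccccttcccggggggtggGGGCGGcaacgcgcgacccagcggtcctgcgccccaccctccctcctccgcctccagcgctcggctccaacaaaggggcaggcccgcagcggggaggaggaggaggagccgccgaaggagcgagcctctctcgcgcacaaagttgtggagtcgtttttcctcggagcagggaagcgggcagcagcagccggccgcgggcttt
SHISA2, chr13:26051967-26052266, minus strand: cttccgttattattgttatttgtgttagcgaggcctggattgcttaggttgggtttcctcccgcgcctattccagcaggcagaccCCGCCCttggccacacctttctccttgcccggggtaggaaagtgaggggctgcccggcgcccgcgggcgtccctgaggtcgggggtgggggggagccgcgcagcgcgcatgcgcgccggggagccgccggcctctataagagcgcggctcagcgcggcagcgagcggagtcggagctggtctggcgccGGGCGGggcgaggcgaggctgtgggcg
MYOM1, chr18:3219919-3220218, minus strand: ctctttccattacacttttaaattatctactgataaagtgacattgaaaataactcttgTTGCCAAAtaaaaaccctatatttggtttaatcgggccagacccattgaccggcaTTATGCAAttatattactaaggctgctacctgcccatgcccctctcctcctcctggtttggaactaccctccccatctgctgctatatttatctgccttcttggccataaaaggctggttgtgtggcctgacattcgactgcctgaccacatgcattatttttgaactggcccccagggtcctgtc
PTGS1, chr9:122370283-122370582, plus strand: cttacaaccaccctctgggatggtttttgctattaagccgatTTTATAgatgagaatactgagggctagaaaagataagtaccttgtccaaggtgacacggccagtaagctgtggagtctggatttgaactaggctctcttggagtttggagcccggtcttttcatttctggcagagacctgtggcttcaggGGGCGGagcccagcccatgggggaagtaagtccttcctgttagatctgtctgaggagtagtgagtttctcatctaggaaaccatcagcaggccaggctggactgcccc

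The share of G and C was 72.3% in this UTRN window and 69.7% in that of SHISA2, against 44.3% in MYOM1 and 50.7% in PTGS1. The window of FAM19A4 had the highest share of the 9, 75.7%, and the median over all windows was 58.7%. UTRN, TNFAIP8L3 and PTGS1 each have a second start, whose window had 48.3% in UTRN and 64.7% in PTGS1, so that the order of these genes is the opposite there. The 2 windows of TNFAIP8L3 had 37.3% and 66%. RefSeq and GENCODE do not place all starts alike, and the reads do not say which start was used.

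None of the 9 windows held TGACGTCA, the full cAMP response element, which 1.85% of all windows hold. None held its core TGACG either (24.6% of all windows, the full element included), nor TGANTCA, the AP-1 site (7.71%), nor AAAGGTCA, the site of NR4A monomers (1.22%). The GC box GGGCGG was found in 6 of the 9 windows and in 5 of the 6 genes, the exception being MYOM1, and in 45.0% of all windows. In MYOM1 the C/EBP-type letters TTGCNNAA (10.5% of all windows) occurred at 2 places, starting 191 and 136 bases before the transcript start. TATAAA (11.5% of all windows) was found 208 bases before the start in PTGS1 and 215 bases before the second start of UTRN. A match is a description of letters, and a missing match speaks only of these windows.

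Read depth was similar in both groups. Library sizes, taken from the steps of the CPM values, ran from 86.8 M to 110.8 M for PBS and from 85.7 M to 107.0 M for METH. The listed genes together held 20027072 to 25449507 reads per library. One read was worth 0.00903 to 0.0117 CPM, and the values of the 6 genes can be turned back into whole reads. In a bulk sample, more cells with a transcript and more transcript per cell cannot be told apart. The table holds only genes that the authors' own comparison marked as different, so the shares given for it below are high. In 1270 of its 4101 genes (31.0%) every METH library lay above every PBS library. This was also so in all 6 genes described here, which were chosen for it.

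**Figure D1:**
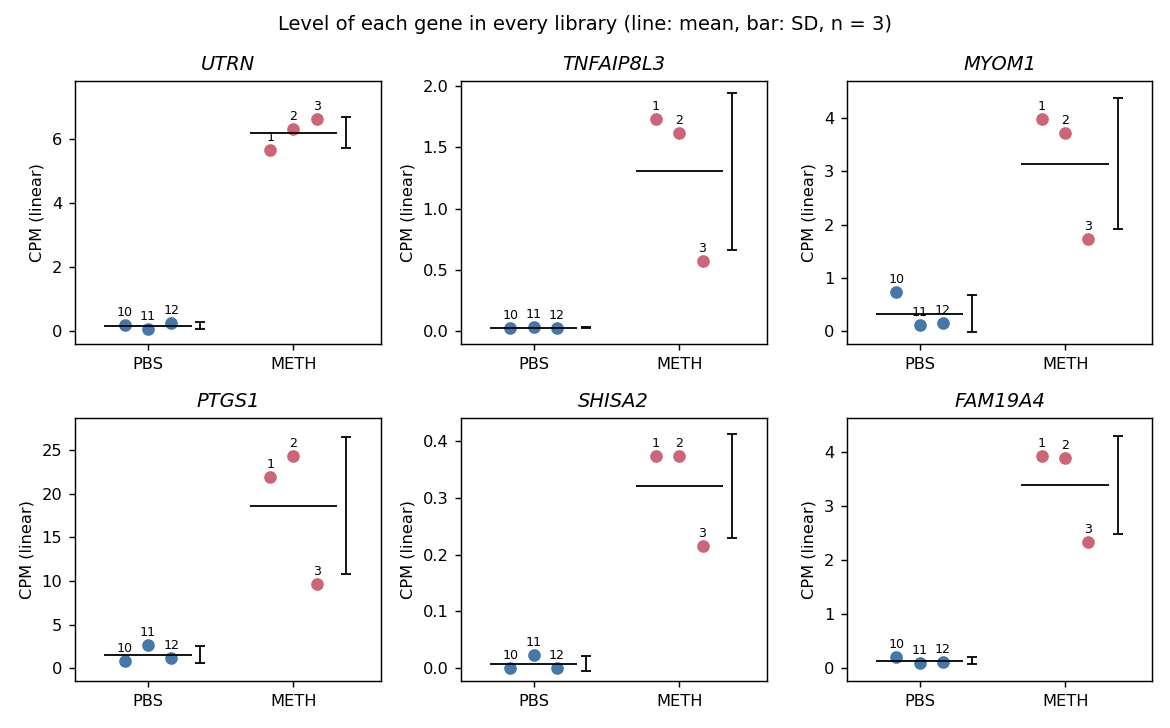
CPM (linear axis) of each of the 6 genes in the 3 PBS libraries and the 3 METH libraries, with library numbers above the points, the mean as a line and the SD as a bar. In every panel all METH points lie above all PBS points, and METH 3 is the lowest METH point in every gene but UTRN.

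UTRN (ENSG00000152818, GRCh38 chromosome 6, 144285701 to 144853034, plus strand) had the largest log2 difference of the 6. It was at 0.19 CPM in PBS 10, 0.069 CPM in PBS 11 and 0.279 CPM in PBS 12, and at 5.673 CPM in METH 1, 6.318 CPM in METH 2 and 6.618 CPM in METH 3. Between 6 and 26 reads lay behind each PBS value and between 486 and 708 behind each METH value. The METH libraries were close to each other and far above the PBS libraries, the lowest of them being 20.3-fold above the highest PBS library. Means were 0.179 ± 0.105 CPM for PBS and 6.20 ± 0.483 CPM for METH (SD, n = 3 each), with a ratio of 34.6. On the log2(CPM + 0.1) scale the difference was 4.57 (standard error 0.355), rank 2 of the 4101 genes. The gene is long, with 14604 exonic bases over 567.3 kb, so its level per kb of exon with METH was only 0.425 CPM.

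FAM19A4 (ENSG00000163377, chromosome 3, 68731766 to 68953297, minus strand) showed the next largest difference. It was at 0.208 CPM in PBS 10, 0.092 CPM in PBS 11 and 0.118 CPM in PBS 12, from 8 to 23 reads. With METH it was at 3.934 CPM in METH 1, 3.897 CPM in METH 2 and 2.346 CPM in METH 3, from 251 to 354 reads. METH 1 and METH 2 were nearly equal and METH 3 was lower, and the lowest METH library was 11.3-fold above the highest PBS library. Its mean was 0.139 ± 0.0609 CPM for PBS and 3.39 ± 0.906 CPM for METH (SD, n = 3 each), giving a ratio of 24.3 and a log2 difference of 3.86 (standard error 0.351).

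PTGS1 (ENSG00000095303, chromosome 9, 122370530 to 122395703, plus strand) was the most abundant of the 6 with METH and the only one whose PBS mean exceeded 1 CPM. It was at 0.812 CPM in PBS 10, 2.684 CPM in PBS 11 and 1.127 CPM in PBS 12, and at 21.898 CPM in METH 1, 24.304 CPM in METH 2 and 9.627 CPM in METH 3. Each PBS value came from 90 to 233 reads and each METH value from 1030 to 2208. Both groups were wide, with PBS 11 high among the PBS libraries and METH 3 low among the METH libraries, but they did not overlap. The lowest METH library was 3.59-fold above the highest PBS library. Means were 1.54 ± 1.00 CPM for PBS and 18.6 ± 7.87 CPM for METH (SD, n = 3 each), with a ratio of 12.1 and a log2 difference of 3.57 (standard error 0.474). Per kb of exon it reached 3.21 CPM with METH, the highest of the 6.

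TNFAIP8L3 (ENSG00000183578, chromosome 15, 51056598 to 51105276, minus strand) was almost without reads in PBS, with exactly 3 reads in each PBS library (0.027 CPM in PBS 10, 0.035 CPM in PBS 11 and 0.032 CPM in PBS 12). In METH 1 it had 148 reads (1.728 CPM), in METH 2 147 reads (1.618 CPM) and in METH 3 61 reads (0.570 CPM). METH 3 was thus far below the other METH libraries and still 16.3-fold above the highest PBS library. With so few reads in PBS the fold is best given with its counting error. The rate of reads with METH was 40.6 times that with PBS, with an exact 95% interval of 21.1 to 89.4 that covers counting error only. The mean with METH was 1.31 ± 0.639 CPM (SD, n = 3), and the log2 difference was 3.29 (standard error 0.438).

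MYOM1 (ENSG00000101605, chromosome 18, 3066807 to 3220108, minus strand) was the gene whose groups lay closest together. It was at 0.731 CPM in PBS 10, 0.115 CPM in PBS 11 and 0.161 CPM in PBS 12, and at 3.969 CPM in METH 1, 3.720 CPM in METH 2 and 1.729 CPM in METH 3. PBS 10, with 81 reads against 10 and 15 in the other PBS libraries, stood above them, and METH 3 stood below the other METH libraries. The lowest METH library was therefore only 2.37-fold above the highest PBS library. Means were 0.336 ± 0.343 CPM for PBS and 3.14 ± 1.23 CPM for METH (SD, n = 3 each), with a ratio of 9.35 and a log2 difference of 3.08 (standard error 0.545), which was 3.69 without PBS 10 and 3.45 without METH 3.

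SHISA2 (ENSG00000180730, chromosome 13, 26044597 to 26051031, minus strand) was the least abundant. PBS 10 and PBS 12 had 0 reads and PBS 11 had 2 reads (0.023 CPM). METH 1 had 32 reads (0.374 CPM), METH 2 had 34 reads (0.374 CPM) and METH 3 had 23 reads (0.215 CPM). All METH libraries lay above the PBS libraries, at a level of 0.321 ± 0.0918 CPM (SD, n = 3) that is itself below 1 CPM. The rate of reads with METH was 45.6 times that with PBS, with an exact 95% interval of 12.3 to 383 from counting error alone, so the size of the fold is hardly fixed by these data. The log2 difference with 0.1 CPM added was 1.95 (standard error 0.366), rank 75 in the table.

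Reads over some of these genes could come from neighbours on the other strand, since it is not stated in the sources used here whether reads were counted by strand. UTRN overlaps the antisense gene AL024474.2, MYOM1 overlaps AP005329.2, and TNFAIP8L3 overlaps MIR4713HG, none of which is in the table. No annotated gene overlaps SHISA2.

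**Figure D2:**
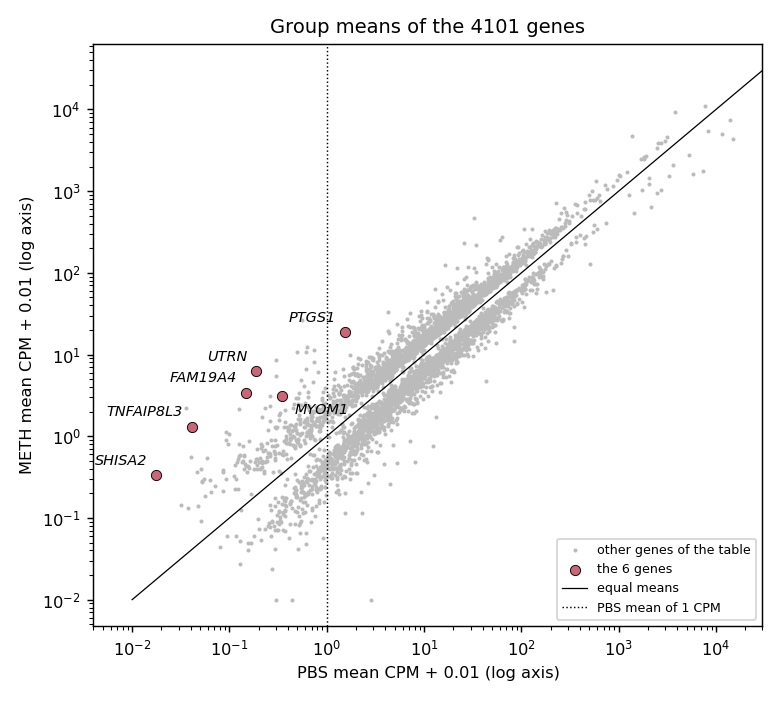
Mean CPM + 0.01 of the 3 METH libraries (log axis) against that of the 3 PBS libraries (log axis) for the 4101 genes of the table, with the 6 genes in red, equal means as a solid line and a PBS mean of 1 CPM as a dotted line. The 6 genes lie along the upper left edge, and PTGS1, at 1.54 CPM with PBS, is the only one to the right of the dotted line.

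The genes are part of a small class in the table. Of its 4101 genes, 487 (11.9%) had a PBS mean under 1 CPM, and 271 of these had a positive log2 difference. A log2 difference of at least 1.95, that of SHISA2, was reached by 49 of the 487, 38 of them protein-coding, and 5 of the 49 are among the genes described here. The values just above that limit were those of SLC6A17 (1.98) and TP53TG3B (1.99), and those just below it were those of AC008073.3 (1.93) and CD37 (1.86). In the other direction, 35 genes with a METH mean under 1 CPM had a log2 difference of -1.95 or lower. Genes that crossed 1 CPM upwards between the group means numbered 149, and 235 crossed it downwards.

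The order of the 6 genes by size of the difference depended on how low values were handled. With 1 CPM added before taking log2, PTGS1 came first (2.92) and SHISA2 last (0.39), while UTRN was at 2.61. With 0.01 CPM added, UTRN came first (5.22) and MYOM1 last (3.56). In fits to the recovered reads, the 2 genes with the fewest reads came first, TNFAIP8L3 with a log2 difference of 5.23 by edgeR and 5.33 by DESeq2 and SHISA2 with 5.20 and 5.47. PTGS1, which has the most reads, was between 2.92 and 3.66 in all of these. The direction was the same in each of the 6 genes under each of these ways of computing it. This follows from the choice of the genes, in which every METH library lay above every PBS library.

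**Figure D3:**
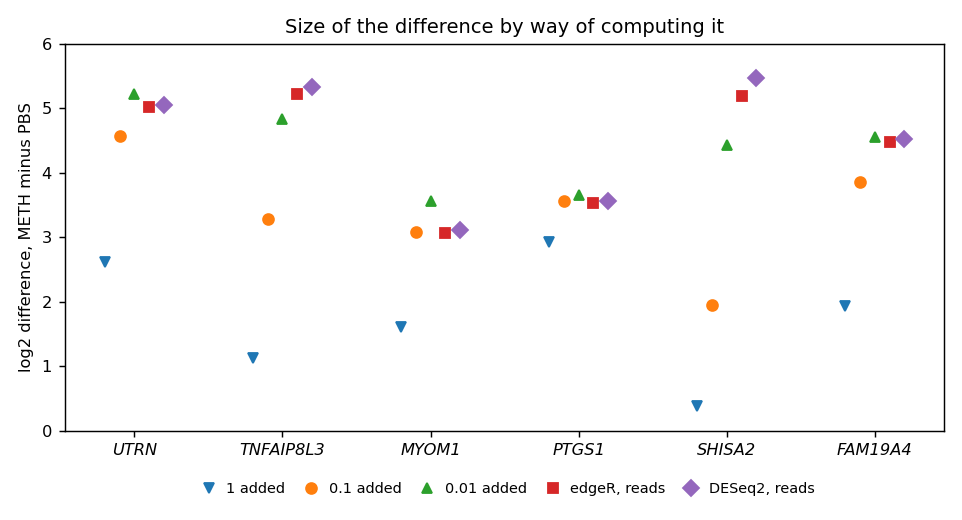
Log2 difference (METH minus PBS) of each of the 6 genes with 1, 0.1 or 0.01 CPM added, and from edgeR and DESeq2 on the recovered reads. All points are above 0, those of PTGS1 lie within 2.92 to 3.66, and those of SHISA2 run from 0.39 to 5.47.

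The METH libraries differed among themselves, which was not used in choosing the genes. METH 3 was the lowest METH library in 5 of the 6 genes, all but UTRN. Its level relative to the mean of METH 1 and METH 2 was 0.341 in TNFAIP8L3, 0.417 in PTGS1, 0.450 in MYOM1, 0.575 in SHISA2 and 0.599 in FAM19A4. In UTRN the same ratio was 1.10, and METH 3 was the highest. METH 3 was also the lowest METH library in 897 (65.7%) of the 1366 genes called higher with METH. These were called at a limma adjusted p-value under 0.1 (33.3% of the table), and their median ratio was 0.824. Among the 209 of these with a PBS mean under 1 CPM, METH 3 was the lowest in 119 (56.9%). Over all genes of the table the median ratio was 0.887, and the table held 19.3% of the reads of METH 3 against 23.0% to 24.3% in the other 5 libraries. The ratio of UTRN was above that of 85.7% of the 1366 genes, and that of TNFAIP8L3 was above that of 0.952% of them.

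The spread between METH libraries followed the same split. The coefficient of variation was 7.78% in UTRN, 26.7% in FAM19A4, 28.6% in SHISA2, 39.1% in MYOM1, 42.3% in PTGS1 and 49.0% in TNFAIP8L3, against a median of 16.5% over the 1366 genes. Counting of reads alone would give 4.12% in UTRN, 2.42% in PTGS1 and 18.4% in SHISA2. The observed value was above that from counting in each of the 6, least so in SHISA2 and UTRN. SHISA2 had only 23 to 34 reads in each of the 3 METH libraries, and whether its spread goes beyond counting was not tested.

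**Figure D4:**
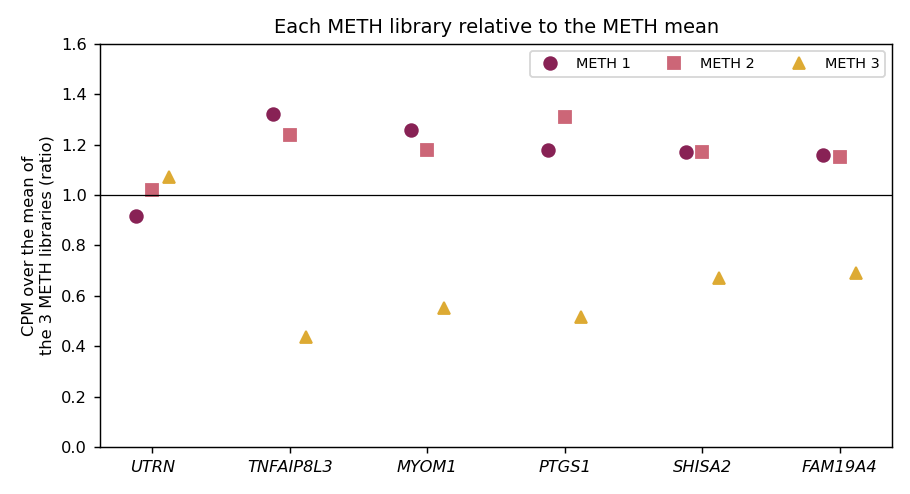
CPM of METH 1 (circle), METH 2 (square) and METH 3 (triangle) divided by the mean of the 3 METH libraries, for each of the 6 genes; the line marks a ratio of 1. METH 3 lies between 0.437 and 0.692 in 5 genes and at 1.07 in UTRN.

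The PBS libraries had no common order in the 6 genes. PBS 10 was the highest in MYOM1 and FAM19A4, PBS 11 in TNFAIP8L3, PTGS1 and SHISA2, and PBS 12 in UTRN. TNFAIP8L3 had 3 reads in each PBS library, so its order reflects library size alone, and that of SHISA2 rests on 2 reads. PBS 11 was the highest PBS library in 794 (58.1%) of the 1366 genes called higher with METH. Leaving out PBS 11 moved the log2 difference of PTGS1 from 3.57 to 4.04, and that of UTRN from 4.57 to 4.25. What sets PBS 11 and METH 3 apart was not tested.

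Genes with the most similar values over the 6 libraries, by Euclidean distance of log2(CPM + 0.1), were looked up for each of the 6. FAM19A4 was the nearest gene to UTRN (distance 1.88), before NR4A3 (1.94) and CGA (2.02). It was also at rank 3 for MYOM1 (1.52), after SHC4 (1.38) and DPT (1.51), DPT being a gene of the extracellular matrix protein dermatopontin. The nearest to FAM19A4 were MIR129-1 (1.25), the gene of a microRNA precursor, DPT (1.33) and DGKK (1.52). MIR129-1 was at 0.208, 0.242 and 0.301 CPM in the PBS libraries and 3.922, 3.203 and 2.075 CPM in METH 1, METH 2 and METH 3.

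PTGS1 was nearest to UNC5B-AS1 (1.99), FOSB (2.11) and HSPB7 (2.26). These 3 were picked by their values in the same libraries. In each of them PBS 11 was the highest PBS library, as in PTGS1 and in 58.1% of the 1366 genes called higher with METH. UNC5B-AS1, for example, was at 1.318 CPM in PBS 10, 7.371 CPM in PBS 11 and 1.686 CPM in PBS 12. TNFAIP8L3 was nearest to RTN4RL1 (1.31), AC004951.4 (1.45) and KCNJ2-AS1 (1.49), and SHISA2 to LINC00346 (0.805), KLHL30 (0.893) and CNTNAP4 (0.977). Distances are smaller among genes of low level because 0.1 CPM is added to all.

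The families and pathways of the 6 genes were then examined, to see whether their partners moved as well. The lists come from general knowledge and hold 214 genes, of which only 24 are in the table. The others have no values here, since the table holds only genes that the authors marked as different. All shares of the 24 are therefore shares of genes already marked, not of the 214. Of the 24, 13 rose (54.2%), 1 fell (4.17%) and 10 were not past the threshold of a limma adjusted p-value of 0.1. Of all genes of the table, 33.3% rose and 35.8% fell. The median log2 difference of the 24 was 0.56, against 0.11 for the table and 3.43 for the 6 genes. Of 19 direct paralogs of the 6 genes, 1 is in the table, FAM19A5. The dystrophin gene DMD and the inducible cyclooxygenase gene PTGS2 are among those not in the table.

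**Figure D5:**
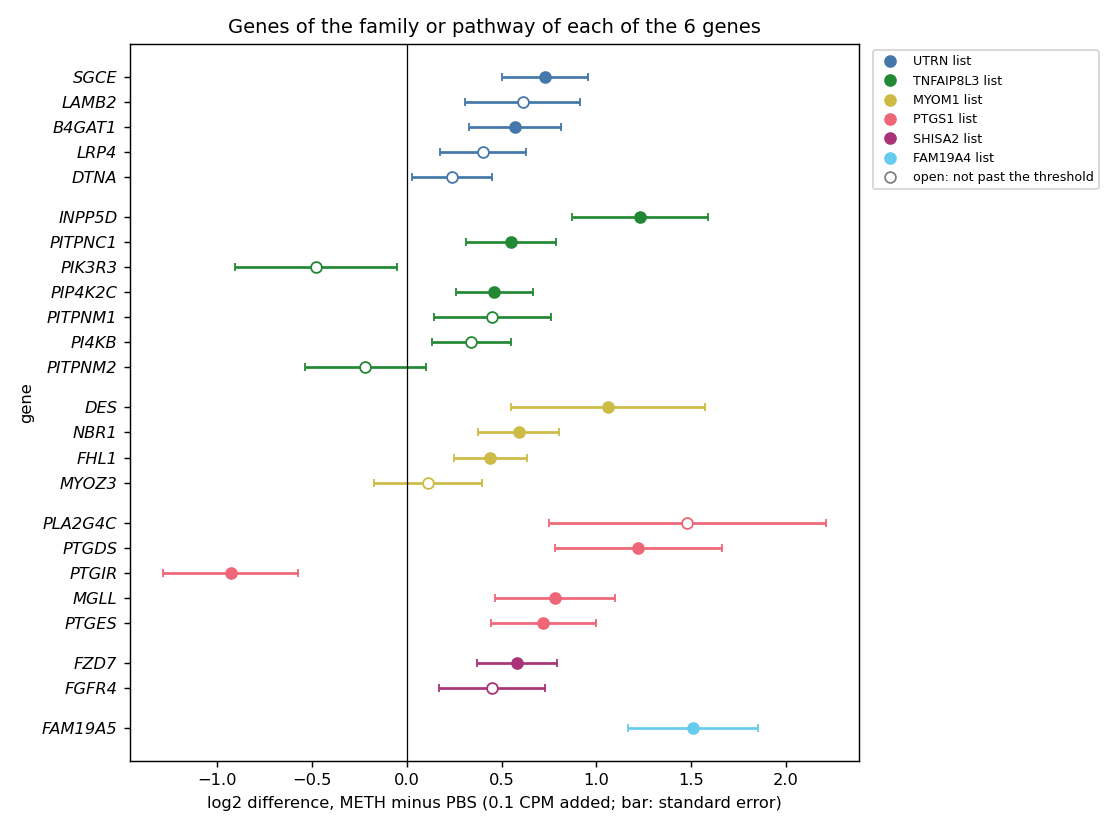
Log2 difference (METH minus PBS, 0.1 CPM added) with its standard error for the 24 genes of the table that belong to the family or pathway lists, coloured by list. Filled points are past a limma adjusted p-value of 0.1; 13 of them lie to the right of 0 and 1, PTGIR, to the left.

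FAM19A5, a secreted paralog of FAM19A4, rose from 0.325, 0.299 and 0.150 CPM in PBS 10, PBS 11 and PBS 12 to 0.864, 0.793 and 1.028 CPM in METH 1, METH 2 and METH 3. The groups did not overlap, and the log2 difference was 1.51 (standard error 0.344, limma adjusted p = 0.0189). METH 3 was the highest METH library, as in UTRN, whereas in FAM19A4 it was the lowest. FAM19A5 was the only gene among the 10 of the FAM19A4 list, which also holds neurexins and formyl peptide receptors, that is in the table.

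In the prostanoid list around PTGS1, 5 of 49 genes are in the table, of which 3 rose and 1 fell. The prostaglandin D synthase gene PTGDS rose from 3.38 ± 2.35 to 7.09 ± 1.75 CPM (SD, n = 3 each), a log2 difference of 1.22 (limma adjusted p = 0.0543), and its groups overlapped, since PBS 11 was at 6.058 CPM and METH 3 at 5.122 CPM. The prostaglandin E synthase gene PTGES rose, with a log2 difference of 0.72 (limma adjusted p = 0.0617), and so did MGLL (0.78, limma adjusted p = 0.0696), whose lipase releases arachidonate from an endocannabinoid. The prostacyclin receptor gene PTGIR fell, with a log2 difference of -0.93 (limma adjusted p = 0.0617). PLA2G4C, a phospholipase gene, had a log2 difference of 1.48 and was not past the threshold (limma adjusted p = 0.102). It was at 6.024 CPM in PBS 11 and at 0.569 and 0.870 CPM in the other PBS libraries. METH 3 was the lowest METH library for PTGDS, PTGES, MGLL and PLA2G4C, as for PTGS1. The same held for 65.7% of the 1366 genes called higher with METH. In PTGIR the lowest was METH 1, at 0.490 CPM against 0.533 CPM in METH 3.

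Around UTRN, 5 of 39 genes of the utrophin and dystrophin complex are in the table and 2 rose. These were SGCE, encoding epsilon-sarcoglycan (18.1 ± 3.95 to 29.5 ± 2.74 CPM, SD, n = 3 each), with a log2 difference of 0.73 (limma adjusted p = 0.0385), and B4GAT1, an enzyme of dystroglycan glycosylation, with 0.57 (limma adjusted p = 0.0773). LAMB2 (0.61), LRP4 (0.40) and DTNA (0.24) were not past the threshold, but LAMB2 was on the recovered reads (edgeR adjusted p = 0.0988, DESeq2 adjusted p = 0.0785). In SGCE, METH 3 was the highest library, at 32.200 CPM, as in UTRN. In B4GAT1, LAMB2 and LRP4 METH 3 was the lowest METH library, and in DTNA METH 1 was.

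Around TNFAIP8L3, 7 of 40 genes are in the table and 3 rose. INPP5D, whose phosphatase removes a phosphate from phosphoinositides, had the largest difference, from 0.623 ± 0.283 to 1.53 ± 0.279 CPM (SD, n = 3 each), a log2 difference of 1.23 (limma adjusted p = 0.0336). The lipid carrier gene PITPNC1 had 0.55 and the kinase gene PIP4K2C 0.46 (limma adjusted p = 0.0782 and 0.0831). PIK3R3 and PITPNM2 had negative differences, -0.48 and -0.22, and were not past the threshold.

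Around MYOM1, 4 of 46 genes of the M band and sarcomere are in the table, and DES, NBR1 and FHL1 rose. DES, encoding the muscle filament protein desmin, was at 0.244, 0.426 and 1.385 CPM in the PBS libraries and at 1.552, 1.266 and 0.972 CPM in the METH libraries, so that its groups overlapped (log2 difference 1.06, limma adjusted p = 0.0998). On the recovered reads DES was not past the threshold (edgeR adjusted p = 0.23, DESeq2 adjusted p = 0.201). NBR1, encoding an autophagy receptor, had 0.59 (limma adjusted p = 0.0541), and FHL1 had 0.44 (limma adjusted p = 0.0836). MYOZ3, encoding a protein of the sarcomere's Z disc, had a log2 difference of 0.11 (limma adjusted p = 0.708). Around SHISA2, 2 of 30 genes are in the table, of which the frizzled receptor gene FZD7 rose (0.58, limma adjusted p = 0.0563) and FGFR4 was not past the threshold (0.45, limma adjusted p = 0.161).

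Of these 14 calls, 11 were lost more than once when libraries were left out in turn. With any 1 of the 6 libraries left out, FAM19A5 stayed past the threshold, with a limma adjusted p-value of at most 0.0607. SGCE and INPP5D lost the call only without METH 2 (limma adjusted p = 0.120 and 0.113), and the other 11 lost it on 2 to 5 of the 6 occasions. The count of related genes that rose was 1 without METH 2, 3 without METH 1, 6 without PBS 10 and 7 without PBS 12, and 14 without METH 3 or PBS 11. Over the whole table, the 1366 genes called higher became 412 without METH 2, 491 without METH 1 and 747 without PBS 12. They were 1015 without PBS 10, 1329 without METH 3 and 1551 without PBS 11.

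Position was compared as well. Within 500 kb of the 6 genes the table holds 5 genes, 4 of them near MYOM1 and 1 near SHISA2, and none near the other 4. The annotation has 39 genes within 500 kb of MYOM1, 14 of SHISA2 and 12 to 34 of each of the others. Those not in the table have no values here. Of the 5 genes, all marked as different by the authors, 3 rose and 2 fell, against 33.3% and 35.8% of the whole table. MYL12B, 41371 bp from MYOM1, rose with a log2 difference of 0.53 (limma adjusted p = 0.0572), and TGIF1 rose with 0.96 (limma adjusted p = 0.0550). NDC80 and SMCHD1, which lie on the other side of MYOM1, fell with -1.0 and -0.83 (limma adjusted p = 0.0422 and 0.0985). The groups of SMCHD1 overlapped, with PBS 12 at 3.844 CPM and METH 3 at 4.851 CPM. CDK8, 203073 bp from SHISA2, rose with 0.51 (limma adjusted p = 0.0763). Each of the 5 lost its call in at least 2 of the fits that left out a library, the ones without METH 1 and without METH 2 among them, and no neighbour was past the threshold without METH 1 or without METH 2.

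Markers of the cell line and of other cell types gave the following levels. Of 20 noradrenergic neuroblastoma markers 10 are in the table, among them GATA2 (401.4 to 506.5 CPM in PBS). Of these 10 markers 7 fell and 3 rose. Their summed level was 1190 to 1350 CPM with PBS and 1100 to 1170 CPM with METH. Of 18 mesenchymal and fibroblast markers 7 are in the table and 5 rose (LUM, SNAI2, VIM, DCN and FOSL1). NOTCH2, with a negative log2 difference of -0.43, and TWIST1, with 0.40, were not past the threshold (limma adjusted p = 0.168 and 0.182). The sum of these 7 mesenchymal and fibroblast markers was 492 to 770 CPM with PBS and 843 to 1200 CPM with METH. Among the METH libraries it was lowest in METH 3 and among the PBS libraries highest in PBS 11. VIM and TWIST1 had the highest PBS means of the 7, 372 and 251 CPM. Of 15 skeletal muscle markers DES alone is in the table, and of 10 Schwann and glial markers NGFR and ERBB3, which both rose, with sums of 1.48 to 7.54 CPM with PBS and 8.73 to 13.9 CPM with METH. None of these 20 genes was at 0 in any library. The part of these markers in the values of the 6 genes was not tested.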

How the data were processed

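The authors sequenced RNA on the HiSeq platform, compared METH with PBS by DESeq2 and deposited 1 table of 4101 genes, all marked significant. The deposited CPM values of each library are headed FPKM, but every value under 5 CPM is a whole multiple (within 0.00051 CPM) of 1 step per column, so they are CPM without correction for gene length. The table also holds the authors' mean CPM per group and their fold change (a ratio), log2 fold change and p-values, none of which was used. The aligner, counting tool, strand setting, genome build and versions are not given in the sources used here.

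Reads were recovered from the steps. The groups were tested on log2(CPM + 0.1) over all 4101 genes with limma 3.58.1 in R 4.3.3 (eBayes with a trend), with Benjamini-Hochberg adjustment and a threshold of 0.1. No source used here says that the samples of a group were separate cultures, so p-values measure only the spread between these samples, which may be technical. Since the authors picked the 4101 genes with these very samples, the adjusted p-values are too low. Alternatives were 1 or 0.01 CPM added, a filter on a mean of 1 CPM, no trend, median-ratio scaling, a threshold of 0.05, edgeR (4.0.16, TMM) and DESeq2 (1.42.0) on the recovered reads, a window of 1000 kb for neighbours, and each library left out. The scaling factors in edgeR, DESeq2 and the median-ratio setting came from the 4101 genes alone, all marked as different by the authors. These settings are therefore no independent check of the scaling. The fits were tested on simulated data.

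The genes and lists were chosen with earlier results of these data known. The genes named are the 6 members, up to 5 genes past the threshold and the paralogs per related list, the neighbours within 500 kb, the 3 nearest genes by distance and those around the limit of 1.95. Related genes not past the threshold, genes of the marker lists and overlapping genes are named in addition, after their values were seen. The values of 1 marker gene are not reported here. For 2 genes with 3 or fewer reads per PBS library a ratio of read rates with an exact interval (Python 3.11.15, scipy 1.17.1) replaced the planned lower bound. Positions and exonic bases are from GENCODE release 29 (GRCh38), which holds 4093 of the 4101 identifiers. Promoters are from RefSeq, where FAM19A4 is TAFA4 and all 6 genes were found.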

Additional observations from a re-analysis of the deposited data

How the results depend on the processing

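The difference of the 6 genes was positive under every alternative run for them, which follows from their choice. With each library left out, the log2 difference stayed between 4.25 and 4.83 for UTRN, 3.72 and 4.10 for FAM19A4, and 3.23 and 4.04 for PTGS1. It stayed between 3.03 and 3.75 for TNFAIP8L3, 2.71 and 3.69 for MYOM1, and 1.85 and 2.15 for SHISA2. Of all genes, 1366 were higher and 1467 lower with METH, 412 to 1551 and 563 to 1368 with each library left out, and 696 and 783 at a threshold of 0.05. Related genes numbered 13 higher and 1 lower (also by edgeR and DESeq2, with LAMB2 called in place of DES), 1 to 14 and 0 to 1 with each library left out, and 3 and 0 at 0.05. Without a trend 8 related genes were higher, and with the filter on a mean of 1 CPM 0 were lower, since PTGIR lies under the filter. Neighbouring genes numbered 3 higher and 2 lower, 0 to 3 and 0 to 2 with each library left out, and 0 and 1 at 0.05. One neighbour was lower with 1 CPM added, with median-ratio scaling, without a trend and with edgeR, and edgeR called 2 higher. With a window of 1000 kb 6 were higher and 6 lower. Median-ratio scaling moved the median of all genes by -0.033. Apart from the constructions named, the causes were not tested. Depth limits SHISA2 and TNFAIP8L3, with at most 3 reads per PBS library. No paired analysis was possible because the PBS columns, numbered 10 to 12, match no single sample, although the sample titles run from 1 to 3 in both groups.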
